A study of Mus musculus with 11 samples.

Results

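Small intestine of mice labelled HFD was compared with small intestine of mice labelled ND across 10477 genes, those with a deposited FPKM (fragments per kilobase of gene, scaled to the reads of the library) of at least 1 in at least 3 of 7 libraries. The table holds 24294 gene symbols, so 13817 did not reach that level. The ND group has 3 libraries and the HFD group 4. A gene low in 1 group could pass through the other alone, which took 3 of 4 HFD libraries or all 3 ND libraries. Onecut2, Adh7, Nr0b2, Per3, Sprr1a and Bmp8b, for example, passed through HFD alone. Slc40a1, Slc10a2, Sucnr1 and Nfil3, for example, passed through ND alone. For such genes the filter and the call rest on the same values. The title of the series concerns obese mice. A further group of 4 libraries, labelled HLJDD, is not used here. The labels do not spell out ND or HFD, and give neither strain, sex, age and feeding time nor the stretch of small intestine sampled. They also do not say that each library is a separate animal, so the spread that p-values rest on may be technical in part or whole.

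The small intestine digests and absorbs food along a gradient. Its upper part, the duodenum and jejunum, takes up fat, sugar, iron and folate, and its enterocytes rebuild triglyceride and export it in chylomicrons, the lipoprotein particles that carry dietary fat. Its last part, the ileum, takes bile acids back up and meets the densest bacterial load, to which its epithelium responds with secreted lectins and oxidants.

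Each of the 7 libraries held 31840336 to 37264672 reads counted in genes, a total computed from the step size of the FPKM. Between 11.2% and 19.3% of the reads in 6 libraries, and 32.4% in HFD 1, came from the mitochondrial genome (mean 20.1 ± 8.63 in HFD and 12.5 ± 1.67 in ND, exact two-sided permutation p = 0.171, the smallest possible p being 0.0286). As deposited, the median log2 change of all genes was -0.213. FPKM was therefore divided by a factor per library (0.753 for HFD 1 and 0.99 to 1.134 for the others), which left a median of -0.011. These scaled FPKM are the levels given here, and changes are differences of mean log2(scaled FPKM + 1), HFD minus ND, which understate the change of low genes. Limma called 2280 genes at an adjusted p under 0.05 (21.8%), 1206 higher in HFD (11.5%) and 1074 lower (10.3%). A log2 change of at least 1 in size, among called genes, was found in 5.57% of those tested. The groups did not overlap in 3951 genes (37.7%). Without ND 1 the call count was 933, without ND 2 it was 734 and without HFD 3 it was 1277, and 717 genes (6.84%) were called with all libraries and in all 7 fits that left out 1. As deposited, 618 genes were called higher (5.9%) and 1661 lower (15.9%). Calls named below also held in those 7 fits unless a lost call is given with its library. Each count of list members called has beside it, in brackets, the range of that count over the 7 fits, with a library named where leaving it out moves the count far, and the count when all libraries are scaled to equal sums. Every such count is to be read against the 11.5% and 10.3% of all genes called higher and lower.

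**Figure D1:**
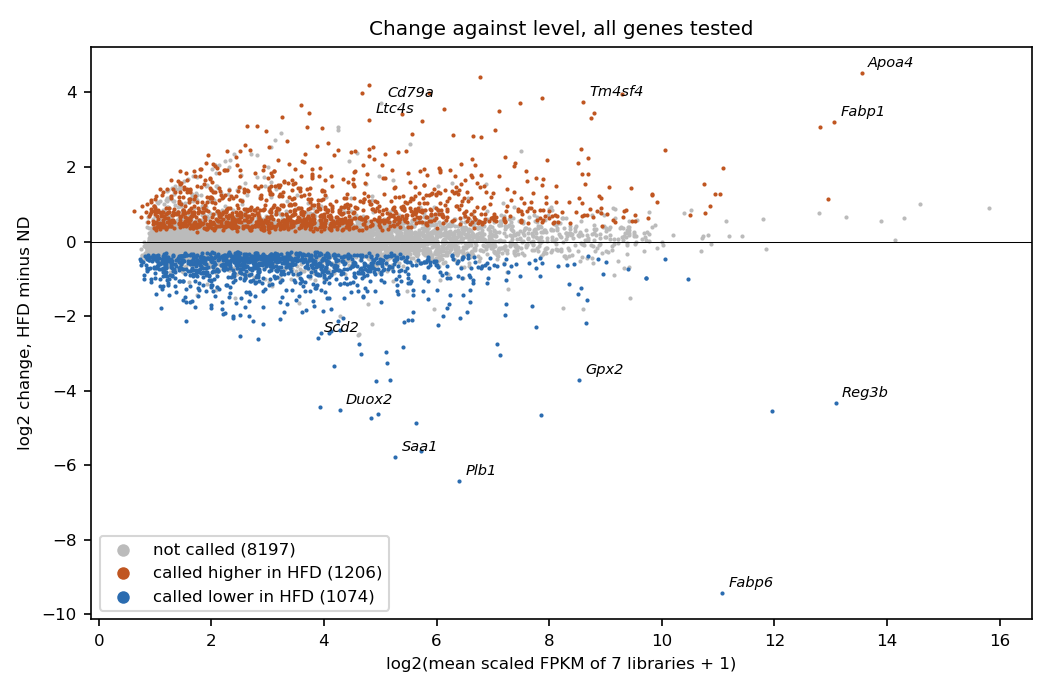
The horizontal axis is log2 of the mean scaled FPKM of the 7 libraries plus 1, and the vertical axis is the log2 change, HFD minus ND, with 1 point per gene. The 1206 genes called higher and 1074 called lower span the whole range of levels, with Fabp6 lowest at -9.43 and Apoa4 highest at 4.52.

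Genes known for their place along the gut separated the libraries and are given first, since the labels do not name the stretch sampled. Of a list of genes of the upper small intestine, 10 of the 17 members tested were higher and 2 lower (from 5 without ND 2 to 10 higher and from 1 to 2 lower in the 7 fits, 7 and 2 with equal sums), and of a list of ileal genes, 1 of the 19 members tested was higher and 14 lower (from 0 to 1 higher and from 9 without ND 2 to 14 lower in the 7 fits, 1 and 14 with equal sums). The summed level of the upper list was 2192, 5294 and 11089.8 in ND 1, ND 2 and ND 3 and 37672 to 62245 in HFD. The summed level of the ileal list was 13854, 10705 and 4741 in ND and 2635 to 3254 in HFD. Such sums rest on their most abundant members: Apoa4 and Rbp2 made up most of the upper sum in every HFD library. Fabp6 made up most of the ileal sum in ND 1 and ND 2. ND 3 lay nearest to HFD on both, and the groups did not overlap. The colon and stomach list summed to 3.12 to 3.69 in ND and 3.98 to 7.51 in HFD, with only 1 of its 16 members above the filter, while all 22 enterocyte markers passed it. The diet and the stretch of gut cannot be told apart in any change described here.

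Among regulators of the gut axis, Gata6, a transcription factor of the upper intestine, stood at 21.3, 20.02 and 22.1 in ND and 61.9, 36.6, 44.3 and 42.9 in HFD. Gata6 changed by 1.07 (log2, SE 0.17, adjusted p = 0.00567). Onecut2, a factor of the duodenum, was near 0 in ND (0.00547, 0.0381 and 0.0746) and at 3.51, 0.813, 2.41 and 3.16 in HFD (log2 change 1.66, SE 0.29, adjusted p = 0.00815). It passed the filter through HFD libraries alone. Gata4 followed the same direction (8.71, 13.6 and 23.2 in ND and 34.3, 26.8, 33.7 and 36.1 in HFD, log2 change 1.15, SE 0.28, adjusted p = 0.0243), a call lost without ND 1, ND 2 or HFD 3 (adjusted p = 0.0601 to 0.0935). On the ileal side Osr2 stood at 47.4, 40.9 and 37.3 in ND and 21.6, 24.3, 24.9 and 21.6 in HFD. Osr2 changed by -0.83 (log2, SE 0.11, adjusted p = 0.00386). Maf was at 204, 135 and 102 in ND and 58.4, 68.96, 58.1 and 44.5 in HFD. Maf changed by -1.30 (log2, SE 0.24, adjusted p = 0.00966). Slc40a1, the iron exporter ferroportin of the duodenum, went against its list: it was lower in HFD (9.03, 6.25 and 2.28 in ND and 0.956, 0.696, 0.685 and 0.847 in HFD, log2 change -1.79, SE 0.33, adjusted p = 0.00928). Tff3, a goblet cell peptide on the ileal list, was higher (363, 472 and 689 in ND and 1583, 1067, 1078 and 1077 in HFD, log2 change 1.27, SE 0.24, adjusted p = 0.011), a call lost without ND 2 (adjusted p = 0.0576).

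**Figure D2:**
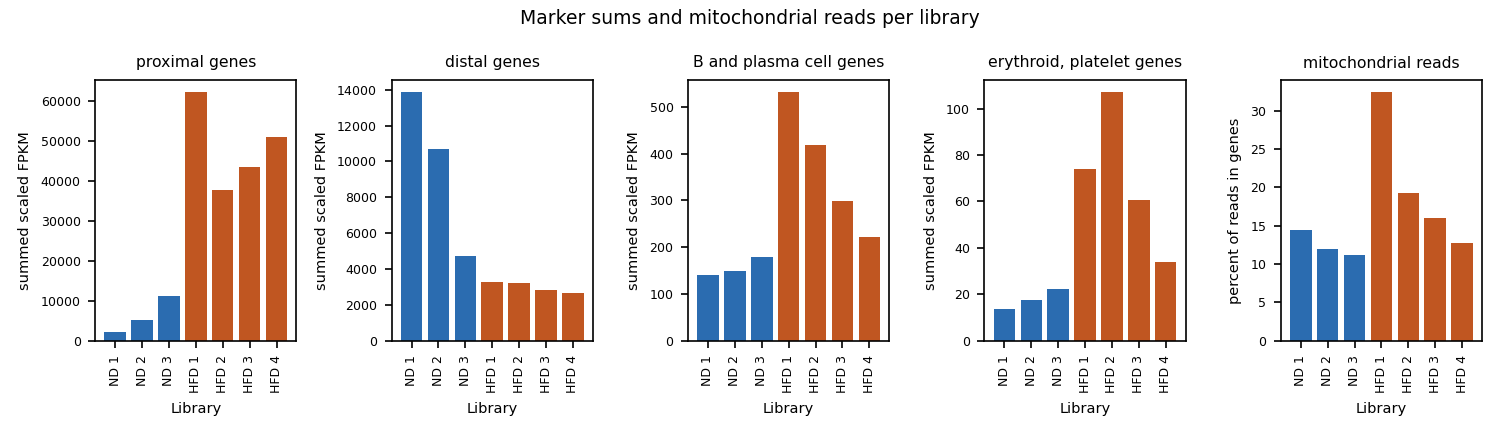
Each bar is 1 library (ND blue, HFD orange), showing the summed scaled FPKM of 4 marker lists (proximal genes are the upper gut list, distal genes the ileal list) and the percent of reads from the mitochondrial genome. The upper gut sum is at least 37672 in every HFD library and at most 11089.8 in ND, while the B and plasma cell, erythroid and platelet, and mitochondrial values spread widely within HFD. Apoa4 and Rbp2 make up most of the upper gut sum in HFD.

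The largest rise was in Apoa4, the gene of a chylomicron apolipoprotein (chromosome 9, 46240844 to 46243458), at 219, 1065 and 2668 in ND and 27555, 15102, 17760.4 and 20004 in HFD. Apoa4 changed by 4.52 (log2, SE 0.73, adjusted p = 0.00608). Reads of Apoa4 made up 0.0409% to 0.473% of all reads in genes in ND and 2.52% to 3.46% in HFD. As the choice of the largest rises required, every HFD library lay above every ND library, although the ND values themselves spread widely. Tm4sf4, a membrane protein related to the tetraspanins (chromosome 3, 57425410 to 57441677), had a tighter baseline, at 45.1, 47.9 and 44.1 in ND and 897, 409, 595 and 690.3 in HFD. Tm4sf4 changed by 3.74 (log2, SE 0.24, adjusted p = 0.000476). Enpp3, an ectoenzyme that cleaves extracellular nucleotides, stood at 1.61, 7.65 and 18.9 in ND and 192, 66.5, 204 and 268 in HFD. Enpp3 changed by 4.42 (log2, SE 0.70, adjusted p = 0.00574). Slc46a1, the proton-coupled folate transporter, was at 2.4, 4.75 and 7.49 in ND and 116, 32.4, 100.3 and 138 in HFD. Slc46a1 changed by 3.97 (log2, SE 0.51, adjusted p = 0.00305). HFD 2 was the lowest HFD library for all 4.

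The other large rises were mostly genes of upper gut enterocyte metabolism. Ada, which deaminates adenosine, had log2 change 3.85; Aadac, an ester hydrolase of the endoplasmic reticulum, 3.72; Bbox1, the last enzyme of carnitine synthesis, 3.67; and Nt5e, which makes adenosine from extracellular AMP, 3.41. The alcohol dehydrogenases Adh1, Adh6a and Adh4 changed by 3.97, 3.45 and 3.45. Lypd8l changed by 3.49 and Cym, a chymosin gene, by 3.33 from 0, 0.176 and 1.09 in ND. Sult6b2, a sulfotransferase, was at 0.0515, 0.0489 and 0.154 in ND and 6.47, 1.79, 68.5 and 109.9 in HFD. Sult6b2 changed by 4.21 (log2, SE 1.19, adjusted p = 0.0416), a call lost without ND 1, ND 2, ND 3, HFD 3 or HFD 4 (adjusted p = 0.0554 to 0.128). Reg1 (call lost without ND 1 or ND 2 (adjusted p = 0.0595 to 0.0627)) is described with the lectins.

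The largest fall was in Fabp6, the ileal bile acid carrier (chromosome 11, 43596040 to 43601562), at 8769.8, 5911 and 373 in ND and 5.72, 3.54, 2.34 and 1.27 in HFD. Fabp6 changed by -9.43 (log2, SE 1.00, adjusted p = 0.00186). ND 3 held far less Fabp6 than ND 1 and was still well above the highest HFD library. Slc10a2, the ileal bile acid transporter, was at 229, 125 and 7.25 in ND and 0.194, 0.55, 0.202 and 0.159 in HFD (log2 change -5.61, SE 0.98, adjusted p = 0.00806), with the same order of the ND libraries. Plb1, a brush border phospholipase, ran the other way within ND, at 146, 183 and 251 in ND and 0.0981, 5.54, 2.05 and 0.0588 in HFD. Plb1 changed by -6.43 (log2, SE 0.62, adjusted p = 0.00133). Suox, the sulfite oxidase gene, was also lowest in ND 3 among the ND libraries, at 112, 78.5 and 6.79 in ND and 1.33, 1.66, 2.51 and 3.23 in HFD. Suox changed by -3.73 (log2, SE 0.82, adjusted p = 0.0178), a call lost without ND 1 or ND 2 (adjusted p = 0.0677 to 0.081).

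Tmigd1, an epithelial adhesion protein (738, 513 and 293 in ND and 21.4, 33.98, 15.9 and 8.99 in HFD, log2 change -4.66), Fam151a (-4.85), Mgat4c, an N-glycan branching enzyme (-4.63), Gpx2, a glutathione peroxidase of gut epithelium (-3.72), and Slc5a8, a transporter of short-chain fatty acids (-3.71), completed the falls outside the microbe-induced genes. All 5 were chosen among genes whose groups did not overlap.

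**Figure D3:**
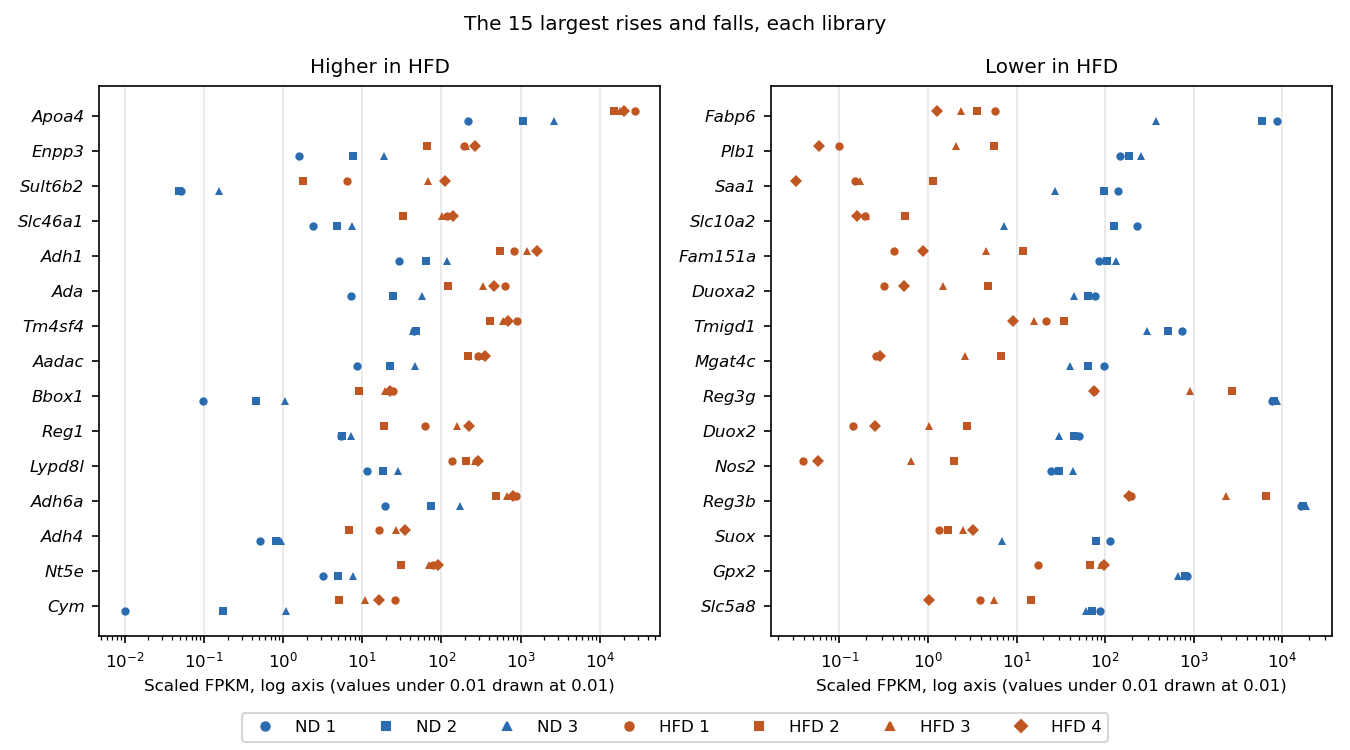
Each row is a gene and each point a library (ND blue, HFD orange, marker shape by replicate) on a log axis of scaled FPKM. The genes were chosen among those whose groups do not overlap, so no HFD point reaches the ND points of the same gene. The ND points lie far apart for genes such as Cym, Slc10a2, Fabp6 and Apoa4.

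Gains and losses can also be read as level rather than as a ratio. The 13 mitochondrially encoded genes, of which 2 were called, summed to 80101 to 100462 in ND and 97119 to 324360 in HFD, highest in HFD 1 and overlapping in HFD 4. Of called genes, Apoa4, Fabp1, the liver-type fatty acid binding protein, and Rbp2, the retinol carrier of enterocytes, together took 0.127%, 0.402% and 0.858% of reads in ND and 3.69% to 4.89% in HFD. Fabp1 was at 425, 1711 and 4129.7 in ND and 15377, 11339, 12318 and 14783 in HFD. Fabp1 changed by 3.21 (log2, SE 0.65, adjusted p = 0.0134), a call lost without ND 2 (adjusted p = 0.051). Rbp2 was at 816, 1325 and 2247 in ND and 14125, 8756, 10225 and 12677 in HFD. Rbp2 changed by 3.06 (log2, SE 0.34, adjusted p = 0.00205). Zg16, a mucus lectin of goblet cells, went from 829 ± 313 in ND to 3175 ± 723 in HFD. Guca2b, uroguanylin, which drives salt and water secretion, went from 1085 ± 216 in ND to 2633 ± 635 in HFD. Prap1 gained level too (1122 ± 276 in ND to 2825 ± 1198 in HFD, log2 change 1.28, SE 0.31, adjusted p = 0.0239), a call lost without ND 1 or ND 2 (adjusted p = 0.0914 to 0.0993), as did mitochondrial ND4 (5433, 4448 and 3674 in ND and 17689, 9403, 8065 and 6874 in HFD, log2 change 1.14, SE 0.33, adjusted p = 0.0429), lost without ND 1, ND 2, ND 3, HFD 2 or HFD 3 (adjusted p = 0.067 to 0.138).

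The largest losses of level were in Reg3b and Reg3g (calls lost without ND 1, ND 2, ND 3, HFD 1, HFD 3 or HFD 4 (adjusted p = 0.0535 to 0.12) and without ND 1, ND 2, ND 3, HFD 1 or HFD 4 (adjusted p = 0.0531 to 0.11)), then Fabp6, Anpep, Gpx2, Clca4b, Clec2h and Naaladl1. Anpep, an aminopeptidase of the brush border, was at 1922, 1960.4 and 2007 in ND and 578, 1158, 1148 and 1154 in HFD. Anpep changed by -1.01 (log2, SE 0.26, adjusted p = 0.0286), a call lost without ND 1, ND 2, ND 3 or HFD 3 (adjusted p = 0.0503 to 0.105). Naaladl1, a peptidase, went from 723 ± 107 in ND to 165 ± 60.9 in HFD. Gpx2 went from 766 ± 90.6 in ND to 67.8 ± 36.00 in HFD. Clca4b went from 1176 ± 62.9 in ND to 598 ± 44.5 in HFD. Clec2h went from 1172 ± 68.9 in ND to 601 ± 110.5 in HFD. Fabp2, the intestinal fatty acid binding protein and a marker of all enterocytes, is given for scale: it was at 14472, 17173 and 22288 in ND and 20257, 20058, 16552 and 16144 in HFD and was not called (log2 change 0.04, adjusted p = 0.911).

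Among fat absorption genes the calls were nearly all rises: 14 of the 30 members tested were higher and 1 lower (from 4 without ND 2 to 16 higher and from 0 to 1 lower in the 7 fits, 7 and 1 with equal sums), with a median log2 change of 0.51 beside -0.011 for all genes. On FPKM as deposited the counts were 8 higher and 1 lower, and in all 7 fits without 1 library 4 higher and 0 lower. The 4 that held were Apoa4, Acsl3, which activates long-chain fatty acids (4.48, 5.03 and 4.77 in ND and 22.9, 14.3, 17.5 and 20.4 in HFD, log2 change 1.76, SE 0.15, adjusted p = 0.00109), Dgat2, which makes triglyceride (53.00, 68.5 and 94.7 in ND and 239.8, 145, 318 and 425 in HFD, log2 change 1.89, SE 0.36, adjusted p = 0.0106), and Plin2, the coat protein of lipid droplets (10.2, 12.5 and 14.9 in ND and 28.2, 21.3, 30.7 and 37.4 in HFD, log2 change 1.16, SE 0.20, adjusted p = 0.00734). Cd36, a fatty acid uptake receptor, was at 9.05, 17.1 and 32.7 in ND and 46.3, 37.7, 53.6 and 65.2 in HFD. Cd36 changed by 1.47 (log2, SE 0.38, adjusted p = 0.0294), a call lost without ND 1, ND 2, HFD 3 or HFD 4 (adjusted p = 0.0535 to 0.102). Mttp, which loads lipid onto apolipoprotein B, was at 312, 352 and 475 in ND and 621, 500.3, 669 and 737 in HFD. Mttp changed by 0.74 (log2, SE 0.19, adjusted p = 0.0303), a call lost without ND 1, ND 2, HFD 3 or HFD 4 (adjusted p = 0.0563 to 0.127).

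Several central members did not pass. Apob, the structural protein of chylomicrons, was at 361, 342 and 383 in ND and 334, 270.1, 361 and 397 in HFD (log2 change -0.10, adjusted p = 0.647). Mogat2, the monoacylglycerol acyltransferase of enterocytes, was at 144, 179 and 222 in ND and 136, 156, 210.1 and 244 in HFD (0.02, adjusted p = 0.954). Apoa1 did not overlap between groups but was not called either (5337, 7137 and 10427 in ND and 11964, 12249, 10773 and 11169 in HFD, adjusted p = 0.0793). The changes within chylomicron genes were thus unequal, from -0.10 in Apob to 4.52 in Apoa4.

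Of the enzymes that act on luminal lipid, 3 of the 8 members tested were higher and 2 lower (3 higher and from 1 to 2 lower in the 7 fits, 3 and 2 with equal sums). Clps, colipase, was at 1.66, 2.06 and 1.84 in ND and 22.4, 7.86, 10.97 and 10.2 in HFD. Clps changed by 2.18 (log2, SE 0.29, adjusted p = 0.00344). Pnliprp2, a lipase-related protein, was at 1.94, 1.78 and 1.23 in ND and 6.99, 4.91, 10.3 and 13.7 in HFD. Pnliprp2 changed by 1.84 (log2, SE 0.29, adjusted p = 0.00567). Alpi, intestinal alkaline phosphatase, was at 213, 250.1 and 324 in ND and 801, 479.6, 766 and 906 in HFD. Alpi changed by 1.47 (log2, SE 0.24, adjusted p = 0.00674). Clps and Pnliprp2 are best known from pancreas. On the pancreatic acinar list 7 of 33 members passed the filter and 4 of the 7 members tested were higher and 0 lower (from 3 to 6 higher and 0 lower in the 7 fits, 4 and 0 with equal sums), while 6 to 10 of the 25 in the table were at 0 in each library. The list summed to 1802 to 3791 in ND and 4196 to 6181 in HFD, without overlap. Of its called members Zg16, the goblet cell mucus lectin, weighed most: it was at 4250 in HFD 1, where the list summed to 6181. The part of the list in these results was not tested.

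Fatty acid oxidation and ketone synthesis: 16 of the 38 members tested were higher and 3 lower (from 6 without ND 2 to 19 higher and from 2 to 3 lower in the 7 fits, 8 and 4 with equal sums; median 0.55; 10 higher and 4 lower as deposited; 6 higher and 2 lower in all 7 fits without 1 library). Bbox1 was at 0.0973, 0.462 and 1.05 in ND and 24.6, 9.1, 19.6 and 22.7 in HFD. Bbox1 changed by 3.67 (log2, SE 0.34, adjusted p = 0.00132). Pdk4, which shuts off pyruvate use, was at 2.36, 3.11 and 5.7 in ND and 14.3, 8.38, 11.7 and 12.2 in HFD (log2 change 1.46, SE 0.25, adjusted p = 0.0075), and the thioesterase gene Acot12 changed by 2.30. The receptors of fatty acids parted: Pparg, best known from fat cells, was at 2.14, 2.15 and 2.14 in ND and 10.2, 4.39, 6.37 and 9.27 in HFD (log2 change 1.39, SE 0.24, adjusted p = 0.00739), whereas Ppard was at 19.97, 22.4 and 24.6 in ND and 10.6, 9.66, 13.4 and 14.1 in HFD. Ppard changed by -0.86 (log2, SE 0.15, adjusted p = 0.00757). Vnn1, a pantetheinase and known target of these receptors, was lower (226, 241 and 293 in ND and 82.1, 99.6, 57.5 and 34.6 in HFD, log2 change -1.97, SE 0.33, adjusted p = 0.00701). Cpt1a, which lets fatty acids into mitochondria, was not called (25.8, 27.1 and 29.4 in ND and 17.9, 18.6, 27.8 and 32.9 in HFD, adjusted p = 0.494).

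Cholesterol synthesis was lower in HFD along most of its length: 1 of the 26 members tested was higher and 19 lower (from 0 to 1 higher and from 9 without ND 2 to 21 lower in the 7 fits, 0 and 23 with equal sums), with a median of -0.84. In all 7 fits without 1 library the counts were 0 higher and 9 lower. Sqle, squalene epoxidase, was at 42.95, 34.02 and 18.1 in ND and 3.94, 7.17, 4.68 and 4.1 in HFD. Sqle changed by -2.40 (log2, SE 0.29, adjusted p = 0.00279). Idi1, an isomerase of the isoprenoid steps, was at 18.5, 13.1 and 6.87 in ND and 1.41, 1.92, 2.08 and 1.73 in HFD. Idi1 changed by -2.22 (log2, SE 0.27, adjusted p = 0.00279). ND 1 was the highest and ND 3 the lowest ND library for both, and no HFD library reached them.

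The 1 member of that list called higher was Insig1, whose product holds the sterol sensor back in the endoplasmic reticulum. It was at 18.96, 14.9 and 10.8 in ND and 41.1, 23.2, 30.2 and 34.1 in HFD. Insig1 changed by 1.06 (log2, SE 0.23, adjusted p = 0.0158), a call lost without ND 2 (adjusted p = 0.0632). Its relative Insig2 went down (8.4, 7.85 and 7.82 in ND and 6.19, 4.4, 4.31 and 4.45 in HFD, log2 change -0.64, SE 0.12, adjusted p = 0.0111), a call lost without ND 1 or ND 2 (adjusted p = 0.0515 to 0.054). In the SREBP family, Srebf1 was higher (5.74, 7.37 and 8.9 in ND and 17.6, 19.8, 20.6 and 22.3 in HFD, log2 change 1.35, SE 0.14, adjusted p = 0.00192) and Srebf2 lower (18.8, 16.4 and 11.3 in ND and 9.22, 10.04, 9.28 and 7.73 in HFD, log2 change -0.69, SE 0.17, adjusted p = 0.0258), the latter lost without ND 1, ND 2 or HFD 3 (adjusted p = 0.0612 to 0.11). The desaturases Scd1 and Scd2, neighbours on chromosome 19, also parted: Scd1 was at 11.4, 9.24 and 7.09 in ND and 21.00, 15.8, 16.8 and 17.7 in HFD. Scd1 changed by 0.89 (log2, SE 0.16, adjusted p = 0.00858). Scd2 was at 27.97, 26.5 and 26.98 in ND and 3.45, 6.33, 3.51 and 2.27 in HFD. Scd2 changed by -2.59 (log2, SE 0.24, adjusted p = 0.00128). Of the fatty acid and lipid synthesis list as a whole, 2 of the 18 members tested were higher and 7 lower (from 2 to 3 higher and from 2 without ND 1 to 7 lower in the 7 fits, 1 and 7 with equal sums), among the latter Elovl1, an elongase of very long chains (31.4, 31.1 and 27.7 in ND and 14.6, 17.02, 16.1 and 17.9 in HFD, log2 change -0.84, SE 0.10, adjusted p = 0.00282).

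Because the cholesterol genes moved together, the bases before their start sites were read from RefSeq promoters of GRCm38.p6. Of the 10477 genes, 8361 had 250 such bases, among them 18 of the 26 cholesterol genes. The box CCAAT, searched on both strands, stood in the promoters of 17 of these 18 genes (94.4%), 12 of 12 of those called lower, beside 3398 of 8361 genes tested (40.6%). It also stood before Insig1, the member called higher (call lost without ND 2 (adjusted p = 0.0632)), and before Msmo1, Ebp, Sc5d and Ggps1, which were not called. Of all genes called lower, 347 of 845 held it (41.1%), and of those called higher 418 of 953 (43.9%). The sterol element TCACNCCAC, searched on both strands, stood in 1 of the 18 (5.56%) beside 105 of 8361 (1.26%). That gene was Hmgcs1 (call lost without ND 1, ND 2 or HFD 3 (adjusted p = 0.0568 to 0.0892)), and it is printed with Idi1 to show the CCAAT boxes, in capitals, in the 250 bases before the start, 5′ to 3′ on the gene's strand. A match is only a match of letters.
Hmgcs1 (GRCm38.p6, chr13:119690101-119690350, plus strand): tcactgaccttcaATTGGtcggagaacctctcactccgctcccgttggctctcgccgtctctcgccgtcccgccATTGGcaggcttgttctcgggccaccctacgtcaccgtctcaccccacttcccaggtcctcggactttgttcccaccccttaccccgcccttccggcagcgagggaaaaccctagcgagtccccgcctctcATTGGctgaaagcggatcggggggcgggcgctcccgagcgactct
Idi1 (GRCm38.p6, chr13:8885356-8885605, plus strand): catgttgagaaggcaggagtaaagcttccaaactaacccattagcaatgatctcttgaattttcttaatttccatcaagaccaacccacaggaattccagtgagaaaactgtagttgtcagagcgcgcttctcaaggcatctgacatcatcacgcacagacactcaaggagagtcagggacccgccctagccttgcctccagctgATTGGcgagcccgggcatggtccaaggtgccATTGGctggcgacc

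Hmgcs1, which starts the pathway, was at 103, 67.9 and 45.2 in ND and 27.7, 38.4, 28.5 and 17.8 in HFD. Hmgcs1 changed by -1.30 (log2, SE 0.31, adjusted p = 0.0245), a call lost without ND 1, ND 2 or HFD 3 (adjusted p = 0.0568 to 0.0892). Of the interferon-stimulated genes, 10 of 31 (32.3%) held the CCAAT box.

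Bile acid handling: 1 of the 10 members tested was higher and 6 lower (from 0 to 1 higher and 6 lower in the 7 fits, 1 and 6 with equal sums), and the 6 falls held in all 7 fits without 1 library. Beyond Fabp6 and Slc10a2 they were the basolateral exporter subunits Slc51a (483, 431 and 288 in ND and 58.9, 79.5, 88.3 and 97.7 in HFD, log2 change -2.28, SE 0.23, adjusted p = 0.0016) and Slc51b (696, 583 and 413 in ND and 251, 235, 179.8 and 179 in HFD, log2 change -1.40, SE 0.21, adjusted p = 0.00508), the bile acid receptor gene Nr1h4 (38.5, 35.3 and 21.4 in ND and 9.14, 10.7, 9.81 and 10.7 in HFD, log2 change -1.52, SE 0.19, adjusted p = 0.00291), and Baat (-0.84), which conjugates bile acids. Nr0b2, a corepressor that Nr1h4 is known to induce, was the exception at 0.237, 0.169 and 0.0197 in ND and 9.04, 0.97, 3.91 and 4.88 in HFD. Nr0b2 changed by 2.10 (log2, SE 0.47, adjusted p = 0.0184), a call lost without ND 1, ND 2 or ND 3 (adjusted p = 0.0516 to 0.0706). Of sterol transport and LXR targets, 2 of the 16 members tested were higher and 2 lower (from 1 to 4 higher and from 0 to 2 lower in the 7 fits, 0 and 3 with equal sums), with Soat1, which esterifies cholesterol, at 0.796, 0.906 and 0.869 in ND and 1.86, 1.75, 2.4 and 2.46 in HFD. Soat1 changed by 0.74 (log2, SE 0.11, adjusted p = 0.00539). The sterol exporter Abcg5 (64.2, 78.3 and 105 in ND and 91.00, 82.1, 87.2 and 92.2 in HFD, adjusted p = 0.617) was not called. The shares of the sterol transport list, 12.5% higher and 12.5% lower, stand beside 11.5% and 10.3% of all genes.

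Of sphingolipid genes 4 of the 28 members tested were higher and 7 lower (from 1 without ND 2 to 5 higher and from 4 without ND 1 to 7 lower in the 7 fits, 0 and 7 with equal sums), and 1 higher and 7 lower as deposited, so the count of rises depends on the scaling. The share higher, 14.3%, stands beside 11.5% of all genes. Sptlc2, a subunit of the first enzyme, was at 36.5, 35.5 and 32.8 in ND and 16.2, 16.6, 18.4 and 20.9 in HFD. Sptlc2 changed by -0.92 (log2, SE 0.11, adjusted p = 0.00279). Asah1, a ceramidase, was at 22.3, 19.6 and 16.3 in ND and 6.995, 9.33, 8.36 and 8.19 in HFD. Asah1 changed by -1.14 (log2, SE 0.13, adjusted p = 0.00252). Degs1, the ceramide desaturase, was at 9.7, 10.6 and 11.9 in ND and 19.7, 17.2, 19.9 and 20.8 in HFD. Degs1 changed by 0.80 (log2, SE 0.11, adjusted p = 0.00342). Of genes of arachidonic acid and epoxides, 6 of the 18 members tested were higher and 3 lower (from 3 without ND 2 to 7 higher and from 2 to 3 lower in the 7 fits, 4 and 3 with equal sums). Ltc4s, the leukotriene synthase, had a flat baseline and a clear rise (3.57, 3.33 and 3.68 in ND and 67.4, 28.4, 39.9 and 42.9 in HFD, log2 change 3.27, SE 0.25, adjusted p = 0.000747). Cyp2c55 fell (64.97, 64.9 and 80.5 in ND and 4.13, 4.63, 8.74 and 9.99 in HFD, log2 change -3.25, SE 0.28, adjusted p = 0.00109) while the epoxygenase Cyp2j6 (15.1, 17.8 and 21.9 in ND and 49.8, 39.2, 52.8 and 63.4 in HFD, log2 change 1.44, SE 0.18, adjusted p = 0.00299) and the soluble epoxide hydrolase Ephx2 (43.2, 75.8 and 139 in ND and 442, 223, 367 and 439 in HFD, log2 change 2.19, SE 0.40, adjusted p = 0.00876) rose.

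Sugar and peptide uptake gave different counts. For sugar, 4 of the 22 members tested were higher and 0 lower (from 2 to 10 without ND 3 higher and from 0 to 1 lower in the 7 fits, 2 and 2 with equal sums). Pck1, an enzyme of glucose production, was at 23.03, 28.9 and 39.6 in ND and 141, 86.01, 160.4 and 211 in HFD. Pck1 changed by 2.22 (log2, SE 0.30, adjusted p = 0.00358). The glucose transporter Slc5a1 (396, 481 and 623 in ND and 223, 326, 452 and 536 in HFD, adjusted p = 0.333) and sucrase-isomaltase, Sis (626, 562 and 586 in ND and 312, 553, 619.9 and 615 in HFD, adjusted p = 0.535), were not called. For peptides and amino acids, 2 of the 29 members tested were higher and 12 lower (from 0 to 4 higher and from 8 to 12 lower in the 7 fits, 0 and 14 with equal sums; median -0.30). Mep1a, a meprin subunit, was at 362, 300.3 and 179 in ND and 22.7, 40.5, 34.5 and 33.1 in HFD. Mep1a changed by -3.03 (log2, SE 0.27, adjusted p = 0.00113). Slc1a1, an acidic amino acid transporter, was at 65.6, 46.5 and 28.2 in ND and 2.33, 9.13, 7.52 and 6.15 in HFD. Slc1a1 changed by -2.75 (log2, SE 0.41, adjusted p = 0.00483). Slc7a9, a subunit of the cystine transporter, was at 132, 134 and 128 in ND and 62.6, 66.99, 69.96 and 72.7 in HFD. Slc7a9 changed by -0.94 (log2, SE 0.10, adjusted p = 0.00184). Dpp4, the peptidase that cleaves incretins, was at 163, 166 and 182 in ND and 58.7, 87.5, 84.9 and 85.3 in HFD (log2 change -1.11, SE 0.16, adjusted p = 0.00407), and Slc6a19 and Enpep changed by -0.71 and -1.25. The difference between the sugar and the peptide list was not tested.

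Retinoid genes were called higher more often than lower: 8 of the 19 members tested were higher and 1 lower (from 6 to 10 higher and from 0 to 1 lower in the 7 fits, 6 and 1 with equal sums; median 0.58; 6 higher and 0 lower in all 7 fits without 1 library). Besides Rbp2 and Adh1 (28.9, 63.7 and 119 in ND and 832, 546, 1187 and 1589 in HFD) they included Rdh7 (28.5, 43.5 and 72.7 in ND and 243, 167, 219 and 264 in HFD, log2 change 2.27, SE 0.30, adjusted p = 0.00329), Adh7 (0.186, 0.147 and 0.424 in ND and 3.9, 2.18, 4.44 and 4.34 in HFD, log2 change 1.89, SE 0.20, adjusted p = 0.00186) and Dhrs3 (4.04, 4.52 and 5.26 in ND and 10.2, 10.01, 9.4 and 10.3 in HFD, log2 change 0.97, SE 0.10, adjusted p = 0.0016), all oxidoreductases of retinol or retinal. Iron and folate genes were split: 4 of the 16 members tested were higher and 4 lower (from 2 to 4 higher and from 2 to 4 lower in the 7 fits, 2 and 4 with equal sums). Both shares were 25%, beside 11.5% and 10.3% of all genes. Beside Slc46a1 and Slc40a1, Heph, the ferroxidase that works with ferroportin, was at 68.8, 61.5 and 66.5 in ND and 43.5, 43.7, 48.3 and 44.1 in HFD. Heph changed by -0.54 (log2, SE 0.10, adjusted p = 0.00844). S100g, the calcium-binding calbindin of the duodenum, was at 4.54, 2.71 and 1.85 in ND and 20.6, 9.002, 16.8 and 22.5 in HFD (log2 change 2.16, SE 0.33, adjusted p = 0.00508), while of its list 2 of the 10 members tested were higher and 2 lower (from 1 to 2 higher and from 1 to 4 lower in the 7 fits, 1 and 4 with equal sums). Both shares of that list were 20%. Of zinc, copper and metallothionein genes 2 of the 18 members tested were higher and 3 lower (from 0 to 3 higher and from 2 to 4 lower in the 7 fits, 1 and 5 with equal sums). Slc30a1, a zinc exporter (10.7, 9.25 and 6.53 in ND and 2.43, 3.3, 4.2 and 4.23 in HFD, log2 change -1.11, SE 0.20, adjusted p = 0.0084), and Mtf1, the zinc-sensing factor (5.99, 5.78 and 5.7 in ND and 3.32, 4.03, 3.23 and 3.06 in HFD, log2 change -0.63, SE 0.10, adjusted p = 0.00538), were lower. The 2 called higher were Mt1, lost without ND 2 (adjusted p = 0.0542), and Atox1. The Atox1 call was lost without ND 1, ND 2, ND 3, HFD 2 or HFD 3 (adjusted p = 0.0531 to 0.162).

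Breakdown of purines and pyrimidines: 9 of the 22 members tested were higher and 2 lower (from 7 to 10 higher and from 1 to 2 lower in the 7 fits, 7 and 4 with equal sums), with 7 higher and 1 lower in all 7 fits without 1 library. Along the path from extracellular nucleotide to uptake, Enpp3, Alpi, Nt5e and Ada rose, with the concentrative transporter Slc28a2 at 5.1, 10.8 and 22.4 in ND and 84.95, 41.2, 60.9 and 75.6 in HFD (log2 change 2.44, SE 0.43, adjusted p = 0.00844) and cytidine deaminase, Cda, at 53.99, 74.9 and 108 in ND and 261, 159.9, 189 and 209.98 in HFD. Cda changed by 1.40 (log2, SE 0.25, adjusted p = 0.00858). Upp1, uridine phosphorylase, fell (105, 106 and 89.3 in ND and 47.2, 62.3, 50.2 and 43.01 in HFD, log2 change -0.98, SE 0.14, adjusted p = 0.00476). In amino acid metabolism Arg2, a mitochondrial arginase, was at 82.4, 116 and 189 in ND and 430.3, 399, 602 and 724 in HFD. Arg2 changed by 2.09 (log2, SE 0.31, adjusted p = 0.00481). Ahcy, of the methylation cycle, was at 30.4, 31.9 and 32.4 in ND and 76.4, 61.9, 83.97 and 99.2 in HFD. Ahcy changed by 1.30 (log2, SE 0.16, adjusted p = 0.00275). For salt and water, 5 of the 30 members tested were higher and 3 lower (from 4 to 6 higher and from 1 to 4 lower in the 7 fits, 4 and 5 with equal sums), shares of 16.7% and 10% beside 11.5% and 10.3% of all genes. Car2, a carbonic anhydrase, was at 1.002, 1.58 and 3.98 in ND and 34.5, 18.8, 20.9 and 21.4 in HFD. Car2 changed by 3.04 (log2, SE 0.32, adjusted p = 0.00186). Slc4a4, a bicarbonate transporter, was at 17.5, 14.9 and 11.6 in ND and 5.52, 6.92, 7.01 and 6.97 in HFD. Slc4a4 changed by -1.03 (log2, SE 0.15, adjusted p = 0.00399).

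Drug metabolism genes were called higher more often than lower. Of phase I enzymes 10 of the 34 members tested were higher and 3 lower (from 5 without ND 2 to 13 higher and from 1 to 3 lower in the 7 fits, 6 and 3 with equal sums; median 0.54), and of conjugation, glutathione and efflux genes 13 of the 40 members tested were higher and 3 lower (from 7 without ND 2 to 15 higher and 3 lower in the 7 fits, 9 and 3 with equal sums; median 0.40). Cyp2d26 was at 71.3, 89.5 and 125 in ND and 285, 236, 326 and 381 in HFD. Cyp2d26 changed by 1.69 (log2, SE 0.23, adjusted p = 0.00342). Cbr1, a carbonyl reductase, was at 97.1, 134 and 190.1 in ND and 443, 316, 358 and 408 in HFD. Cbr1 changed by 1.48 (log2, SE 0.23, adjusted p = 0.00548). Gsta1, a glutathione transferase, was at 19.6, 23.9 and 29.7 in ND and 201, 109, 226 and 309 in HFD. Gsta1 changed by 2.99 (log2, SE 0.33, adjusted p = 0.00198). Nr1i3, the xenobiotic receptor CAR, was at 4.83, 8.12 and 13.1 in ND and 36.9, 27.4, 30.7 and 35.9 in HFD. Nr1i3 changed by 1.88 (log2, SE 0.27, adjusted p = 0.00429). The efflux pump Abcg2 was lower (84.7, 80.3 and 57.2 in ND and 26.3, 22.5, 27.3 and 29.6 in HFD, log2 change -1.44, SE 0.16, adjusted p = 0.00209). Cyp3a11, a major drug-oxidising enzyme, was at 111, 202 and 407 in ND and 96.9, 76.9, 342 and 475 in HFD, spread more widely within groups than between them (adjusted p = 0.89).

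Within glutathione metabolism the steps went opposite ways. Gclm, the regulatory subunit of glutathione synthesis, was at 35.99, 40.9 and 48.4 in ND and 129.9, 93.96, 94.9 and 101 in HFD. Gclm changed by 1.31 (log2, SE 0.16, adjusted p = 0.0027). Gsr, which recycles oxidised glutathione, was at 125, 117 and 105 in ND and 13.7, 31.6, 27.9 and 26.6 in HFD. Gsr changed by -2.23 (log2, SE 0.26, adjusted p = 0.00252). Gpx2, which uses glutathione to remove peroxide, was at 838, 796 and 664 in ND and 17.5, 66.7, 90.3 and 96.9 in HFD. Gpx2 changed by -3.72 (log2, SE 0.54, adjusted p = 0.00425). For both falls the lowest library was HFD 1. Of the NRF2 and antioxidant list, 7 of the 24 members tested were higher and 3 lower (from 1 to 7 higher and from 2 to 3 lower in the 7 fits, 1 and 3 with equal sums; 3 higher and 3 lower as deposited). Nqo1, the best known NRF2 target, was not called (8.43, 9.51 and 9.47 in ND and 8.51, 8.97, 12.98 and 15.3 in HFD, adjusted p = 0.359).

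Interferon-stimulated genes, the antiviral programme that interferons switch on, were lower in HFD: 1 of the 43 members tested was higher and 30 lower (from 0 to 2 higher and from 21 to 32 lower in the 7 fits, 0 and 33 with equal sums), with a median of -0.89 and 0 higher and 21 lower in all 7 fits without 1 library. The smallest adjusted p of the list, 0.00043, was that of Ifit1bl1, an RNA-binding Ifit protein, at 40.7, 33.6 and 30.6 in ND and 6.91, 5.64, 5.8 and 5.55 in HFD (log2 change -2.36, SE 0.12). Oas1a, which makes the messenger that activates RNase L, was at 25.8, 24.7 and 17.3 in ND and 6.96, 4.8, 6.02 and 6.51 in HFD. Oas1a changed by -1.73 (log2, SE 0.17, adjusted p = 0.00133). Usp18, the brake on the interferon receptor, was at 8.6, 8.77 and 7.15 in ND and 3.08, 2.02, 1.98 and 1.85 in HFD. Usp18 changed by -1.51 (log2, SE 0.14, adjusted p = 0.00133). Rnf213, a ubiquitin ligase, was at 10.7, 9.61 and 7.55 in ND and 2.24, 3.08, 2.41 and 1.96 in HFD. Rnf213 changed by -1.58 (log2, SE 0.15, adjusted p = 0.00129). Ifit3 was at 6.08, 6.37 and 5.65 in ND and 2.79, 2.11, 2.07 and 1.68 in HFD. Ifit3 changed by -1.16 (log2, SE 0.12, adjusted p = 0.00192). No HFD library reached the ND range of these genes. Isg15 was closer between groups (62.9, 55.6 and 50.4 in ND and 48.7, 27.8, 19.6 and 17.5 in HFD, log2 change -1.07, SE 0.32, adjusted p = 0.0471), lost without ND 1, ND 2, ND 3, HFD 2, HFD 3 or HFD 4 (adjusted p = 0.0726 to 0.155). The 1 member called higher was Ifi27l2b (227, 268 and 372 in ND and 632, 509, 455 and 494 in HFD, log2 change 0.87, SE 0.19, adjusted p = 0.0185), lost without ND 1 or ND 2 (adjusted p = 0.0729 to 0.089). Members of the Ifit and Oas families share near-identical stretches, so single values are uncertain.

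The same RefSeq promoters were searched for GAAANNGAA, the core of the element that interferon factors bind, on both strands. It stood in the 250 bases before the start of 13 of 31 interferon-stimulated genes with a promoter (41.9%) and in 10 of 23 called lower (43.5%), beside 606 of 8361 genes tested (7.25%). Of all genes called lower, 63 of 845 held it (7.46%), and of those called higher 53 of 953 (5.56%). Matches may overlap. The promoters of 4 of the falling genes (Isg15 lost without ND 1, ND 2, ND 3, HFD 2, HFD 3 or HFD 4 (adjusted p = 0.0726 to 0.155)) are printed 5′ to 3′ on the gene's strand to show where the element, in capitals, lies.
Ifit1bl1 (GRCm38.p6, chr19:34601969-34602218, minus strand): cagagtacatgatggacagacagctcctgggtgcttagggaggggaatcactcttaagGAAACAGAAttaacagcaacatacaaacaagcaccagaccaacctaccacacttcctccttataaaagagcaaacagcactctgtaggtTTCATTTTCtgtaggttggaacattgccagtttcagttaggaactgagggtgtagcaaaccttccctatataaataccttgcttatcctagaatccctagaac
Ifit3 (GRCm38.p6, chr19:34583279-34583528, plus strand): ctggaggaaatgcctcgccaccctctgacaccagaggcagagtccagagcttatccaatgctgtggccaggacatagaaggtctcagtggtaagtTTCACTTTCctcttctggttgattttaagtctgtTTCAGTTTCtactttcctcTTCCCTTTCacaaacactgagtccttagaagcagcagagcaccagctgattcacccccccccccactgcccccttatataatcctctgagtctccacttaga
Oas1a (GRCm38.p6, chr5:120907526-120907775, minus strand): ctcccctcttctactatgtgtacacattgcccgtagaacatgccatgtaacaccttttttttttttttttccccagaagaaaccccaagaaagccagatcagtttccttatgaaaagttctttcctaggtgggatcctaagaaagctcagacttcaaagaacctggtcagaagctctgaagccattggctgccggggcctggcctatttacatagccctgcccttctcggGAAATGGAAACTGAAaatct
Isg15 (GRCm38.p6, chr4:156200819-156201068, minus strand): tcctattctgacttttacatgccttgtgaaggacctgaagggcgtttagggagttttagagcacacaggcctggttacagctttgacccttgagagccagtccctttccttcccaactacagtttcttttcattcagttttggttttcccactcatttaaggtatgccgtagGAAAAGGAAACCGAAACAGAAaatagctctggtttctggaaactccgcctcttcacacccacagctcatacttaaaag

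In Oas1a the capitals start 20 bases before the start and in Isg15 78 bases before it. The log2 changes of these 4 genes were -2.36 for Ifit1bl1, -1.16 for Ifit3, -1.73 for Oas1a and -1.07 for Isg15 (the last call was lost without ND 1, ND 2, ND 3, HFD 2, HFD 3 or HFD 4 (adjusted p = 0.0726 to 0.155)).

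Genes that interferon-gamma induces: 1 of the 21 members tested was higher and 5 lower (from 0 to 1 higher and from 2 to 5 lower in the 7 fits, 0 and 6 with equal sums); the 2 falls that held were Nos2 and Casp4 (35.7, 37.6 and 46.2 in ND and 15.1, 17.6, 12.6 and 9.81 in HFD, log2 change -1.49, SE 0.19, adjusted p = 0.00308), a caspase that senses bacterial lipopolysaccharide. For MHC class I and the immunoproteasome, 2 of the 22 members tested were higher and 4 lower (from 0 to 2 higher and from 0 to 4 lower in the 7 fits, 0 and 8 with equal sums), 0 of them in all 7 fits without 1 library. For MHC class II 0 of the 12 members tested were higher and 2 lower (from 0 to 4 without HFD 4 higher and from 0 to 3 lower in the 7 fits, 2 and 4 with equal sums); H2-Aa, a class II chain, spanned 552, 588 and 633 in ND and 351, 407, 164 and 32.3 in HFD (adjusted p = 0.131), with HFD 4 far below the other HFD libraries. Of interferon-gamma genes 4.76% were higher and 23.8% lower, of MHC class I genes 9.09% and 18.2%, and of class II genes 0% and 16.7%. Of all genes 11.5% were higher and 10.3% lower.

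Genes that epithelium makes in contact with microbes were among the largest falls: 4 of the 24 members tested were higher and 9 lower (from 3 to 5 higher and from 6 to 10 lower in the 7 fits, 3 and 12 with equal sums). Duox2, an oxidase that makes hydrogen peroxide, was at 50.4, 44.3 and 30.4 in ND and 0.144, 2.72, 1.03 and 0.254 in HFD (log2 change -4.53, SE 0.40, adjusted p = 0.00111), and its maturation factor Duoxa2 at 76.3, 63.8 and 44.6 in ND and 0.317, 4.8, 1.47 and 0.536 in HFD. Duoxa2 changed by -4.72 (log2, SE 0.48, adjusted p = 0.0016). Nos2, the inducible nitric oxide synthase, was at 24.7, 29.8 and 42.8 in ND and 0.0388, 1.95, 0.636 and 0.0568 in HFD. Nos2 changed by -4.42 (log2, SE 0.37, adjusted p = 0.00103). Saa1, an acute phase protein, was at 138, 96.5 and 27.1 in ND and 0.151, 1.14, 0.172 and 0.0327 in HFD. Saa1 changed by -5.79 (log2, SE 0.52, adjusted p = 0.00113). HFD 2 was the highest HFD library for all 4, and HFD 1 and HFD 4 the lowest. Alpk1 and Tifa, a kinase and its adaptor that sense a bacterial sugar, are neighbours on chromosome 3 and both fell, Alpk1 at 3.88, 4.1 and 4.08 in ND and 0.377, 1.87, 0.638 and 0.15 in HFD. Alpk1 changed by -1.60 (log2, SE 0.28, adjusted p = 0.00797). Tifa was at 50.4, 47.4 and 49.5 in ND and 4.33, 11.4, 5.1 and 2.57 in HFD. Tifa changed by -3.02 (log2, SE 0.36, adjusted p = 0.0027).

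The secreted lectins did not move together. Reg3b and Reg3g, which bind bacteria, were flat in ND and uneven in HFD: Reg3b was at 16158, 17009.7 and 18669 in ND and 195, 6434, 2288 and 186 in HFD. Reg3b changed by -4.33 (log2, SE 1.21, adjusted p = 0.0394). Reg3g was at 7708, 7968 and 8615 in ND and 74.4, 2661, 912 and 75.5 in HFD. Reg3g changed by -4.55 (log2, SE 1.22, adjusted p = 0.0344). Reg3b was far higher in HFD 2 and HFD 3 than in HFD 1 and HFD 4. The Reg3b call was lost without ND 1, ND 2, ND 3, HFD 1, HFD 3 or HFD 4 (adjusted p = 0.0535 to 0.12) and the Reg3g call without ND 1, ND 2, ND 3, HFD 1 or HFD 4 (adjusted p = 0.0531 to 0.11). Their relatives rose: Reg3a was at 138, 160.2 and 206 in ND and 607, 445, 605 and 713 in HFD. Reg3a changed by 1.81 (log2, SE 0.20, adjusted p = 0.00204). Reg4 was at 8.49, 7.83 and 6.46 in ND and 88.9, 38.7, 93.8 and 124 in HFD. Reg4 changed by 3.24 (log2, SE 0.35, adjusted p = 0.00196). Reg1, next to Reg3g among the tested genes of chromosome 6, was at 5.42, 5.59 and 7.19 in ND and 62.3, 18.9, 158 and 224 in HFD. Reg1 changed by 3.54 (log2, SE 0.74, adjusted p = 0.0147), a call lost without ND 1 or ND 2 (adjusted p = 0.0595 to 0.0627). Reads of these similar genes may have been split in counting. Itln1, an intelectin, was at 12.8, 13.8 and 15.8 in ND and 34.9, 33.7, 29.1 and 27.4 in HFD. Itln1 changed by 1.09 (log2, SE 0.12, adjusted p = 0.00215). Lgals9, a galectin, was at 229, 243 and 264 in ND and 131, 134, 125 and 123 in HFD. Lgals9 changed by -0.93 (log2, SE 0.10, adjusted p = 0.00209).

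Cell death and inflammasome genes were mainly lower: 2 of the 31 members tested were higher and 16 lower (from 1 to 2 higher and from 7 without ND 1 or ND 2 to 14 lower in the 7 fits, 1 and 20 with equal sums; 1 higher and 7 lower in all 7 fits without 1 library). Gsdmc4, of the pore-forming gasdermins, was at 33.2, 28.3 and 20.7 in ND and 1.32, 8.79, 5.29 and 3.66 in HFD. Gsdmc4 changed by -2.46 (log2, SE 0.43, adjusted p = 0.00822). Gsdme was at 8.1, 6.95 and 5.13 in ND and 1.2, 1.54, 1.13 and 0.842 in HFD (log2 change -1.82, SE 0.16, adjusted p = 0.00111), whereas Gsdmd was not called (149, 175 and 211 in ND and 262, 181, 185 and 204 in HFD, adjusted p = 0.383). Naip1 (23.7, 21.1 and 16.7 in ND and 8.78, 7.97, 8.98 and 8.4 in HFD, log2 change -1.16, SE 0.12, adjusted p = 0.00192) and Naip2 (16.6, 17.9 and 18.8 in ND and 8.56, 9.07, 10.7 and 11.2 in HFD, log2 change -0.79, SE 0.11, adjusted p = 0.00431), sensors of bacterial secretion proteins, and Mlkl, the effector of necroptosis (5.08, 4.54 and 4.04 in ND and 2.22, 2.11, 2.56 and 2.51 in HFD, log2 change -0.73, SE 0.10, adjusted p = 0.00386), were lower. Casp6, an executioner caspase, went up (9.76, 23.3 and 54.6 in ND and 182, 148, 183 and 171 in HFD, log2 change 2.81, SE 0.47, adjusted p = 0.00685), and as for Apoa4 its ND level was lowest in ND 1 and highest in ND 3. Enzymes that build mucin sugars were lower more often than higher: 4 of the 30 members tested were higher and 9 lower (from 0 to 6 higher and from 4 without ND 2 to 9 lower in the 7 fits, 0 and 12 with equal sums). As deposited the counts were 0 higher and 11 lower, and none of the rises held in all 7 fits. B4galt1 was at 30.9, 31.7 and 34.1 in ND and 17.7, 16.3, 17.4 and 19.04 in HFD. B4galt1 changed by -0.83 (log2, SE 0.09, adjusted p = 0.00209). B3gnt7 was at 8.19, 8.1 and 8.79 in ND and 3.13, 2.95, 3.88 and 4.44 in HFD. B3gnt7 changed by -1.04 (log2, SE 0.13, adjusted p = 0.00276). Fut2, the enzyme of surface fucose that ileal bacteria induce, did not pass the filter, at 3.48, 2.62 and 0.821 in ND and 0.0644 to 0.167 in HFD.

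Cell type markers were read for makeup, and in bulk tissue fewer cells of a type and less RNA per cell cannot be told apart. Of mature enterocyte markers 9 of the 22 members tested were higher and 3 lower (from 5 without ND 2 to 10 higher and from 1 to 4 lower in the 7 fits, 6 and 5 with equal sums). Of goblet cell markers 4 of the 16 members tested were higher and 1 lower (from 2 to 6 higher and from 0 to 2 lower in the 7 fits, 3 and 2 with equal sums): Zg16 (log2 change 1.98, SE 0.28, adjusted p = 0.00387) and Fcgbp, a mucus protein (39.7, 52.04 and 72.5 in ND and 159, 137, 143 and 156 in HFD, log2 change 1.46, SE 0.19, adjusted p = 0.00324), rose, while Muc2, the main mucin, did not pass (8.82, 9.77 and 13.6 in ND and 12.1, 15.6, 19.1 and 20.05 in HFD, adjusted p = 0.0699). The goblet cell shares, 25% higher and 6.25% lower, stand beside 11.5% and 10.3% of all genes. Of the Paneth cell list 5 of the 19 members tested were higher and 0 lower (5 higher and from 0 to 7 without HFD 2 lower in the 7 fits, 5 and 3 with equal sums). Defensins and lysozyme were not among the rises, and Defa21 and Defa22 had log2 differences of -2.50 and -2.49 that were not called (adjusted p = 0.0763 and 0.0937). The 5 were Itln1, Clps, Pnliprp2, Guca2b and Gip, and Gip encodes a hormone of K cells rather than a Paneth product. Lyz1, lysozyme, was at 32.5, 30.3 and 27.7 in ND and 47.6, 75.5, 34.2 and 14.2 in HFD (adjusted p = 0.698).

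Enteroendocrine genes: 4 of the 22 members tested were higher and 3 lower (from 4 to 5 higher and from 1 to 4 lower in the 7 fits, 3 and 4 with equal sums). Those shares, 18.2% and 13.6%, stand beside 11.5% and 10.3% of all genes. Ghrl, ghrelin, a hormone of stomach and upper gut, was at 2.81, 1.78 and 3.29 in ND and 10.6, 10.5, 10.6 and 12.7 in HFD. Ghrl changed by 1.76 (log2, SE 0.15, adjusted p = 0.00111). Gip was at 16.8, 27.2 and 45.4 in ND and 109, 109, 105 and 109 in HFD. Gip changed by 1.93 (log2, SE 0.28, adjusted p = 0.0042). Chga, a granule protein of all these cells, was at 23.97, 21.8 and 19.6 in ND and 36.4, 32.4, 42.8 and 48.9 in HFD. Chga changed by 0.84 (log2, SE 0.15, adjusted p = 0.00893). Pyy, a hormone of the lower gut, was lower (39.9, 30.4 and 20.9 in ND and 5.2, 8.65, 4.56 and 1.84 in HFD, log2 change -2.46, SE 0.39, adjusted p = 0.00574). Sct, secretin (50.3, 49.2 and 40.4 in ND and 74.4, 44.3, 36.7 and 39.7 in HFD, adjusted p = 0.976), and Cck, cholecystokinin (2.46, 2.99 and 3.84 in ND and 2.68, 3.46, 7.16 and 8.05 in HFD, adjusted p = 0.254), were not called. Of the tuft cell list 1 of the 12 members tested was higher and 3 lower (from 1 to 2 higher and from 1 to 3 lower in the 7 fits, 1 and 5 with equal sums); Sucnr1, the succinate receptor, was at 1.77, 1.13 and 1.24 in ND and 0.265, 0.358, 0.29 and 0.638 in HFD (log2 change -0.78, SE 0.14, adjusted p = 0.00887), opposite to Ltc4s. The tuft cell shares were 8.33% higher and 25% lower.

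Of crypt genes, for stem cell and Wnt targets 0 of the 20 members tested were higher and 2 lower (0 higher and from 0 to 3 lower in the 7 fits, 0 and 2 with equal sums), and for proliferation genes 0 of the 34 members tested were higher and 5 lower (from 0 to 1 higher and from 0 without ND 1 or ND 2 to 11 without HFD 1 lower in the 7 fits, 0 and 7 with equal sums). The stem cell and Wnt genes called lower made up 10% of their list and the proliferation genes 14.7%, beside 10.3% of all genes. None of either list was called in all 7 fits. Lgr5 was at 1.78, 1.31 and 0.677 in ND and 0.469, 0.986, 1.32 and 1.21 in HFD (adjusted p = 0.602). Mki67 was at 9.83, 8.2 and 5.65 in ND and 1.82, 7.66, 6.99 and 6.8 in HFD (adjusted p = 0.398), HFD 1 being the lowest library for both. The 5 lower proliferation genes were Mcm4, Mcm5, Ccne1, Uhrf1 and Dnmt1, all of DNA replication or its methylation, and each call was lost without ND 1 and without ND 2 (Mcm4 without ND 1 or ND 2 (adjusted p = 0.0571 to 0.0615); Mcm5 without ND 1, ND 2, ND 3, HFD 2 or HFD 3 (adjusted p = 0.0535 to 0.144); Ccne1 without ND 1, ND 2 or HFD 3 (adjusted p = 0.0571 to 0.0868); Uhrf1 without ND 1 or ND 2 (adjusted p = 0.0873 to 0.0875); Dnmt1 without ND 1, ND 2 or HFD 3 (adjusted p = 0.0694 to 0.139)).

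Markers of B cells differed widely within the HFD group. Of B and plasma cell genes 4 of the 18 members tested were higher and 1 lower (from 1 to 16 without HFD 4 higher and from 0 to 1 lower in the 7 fits, 5 and 1 with equal sums), and their median log2 change was 2.05. Cd79a, of the B cell receptor, was at 1.32, 0.937 and 0.707 in ND and 132, 59.3, 22.97 and 1.32 in HFD (log2 change 3.71, adjusted p = 0.0587). Ms4a1, which encodes CD20, was at 0.459, 0.388 and 0.187 in ND and 27.7, 16.1, 6.21 and 0.0273 in HFD (adjusted p = 0.104). Cxcl13, the chemokine of B cell follicles, was at 0.906, 1.04 and 0.129 in ND and 87.8, 26.3, 9.88 and 0.0922 in HFD (adjusted p = 0.127). HFD 1 was the highest library and HFD 4 stood near or below the ND levels for all 3. The summed level of the list was 139.5 to 179 in ND and 531, 419, 299 and 222 in HFD 1 to HFD 4. Jchain, made by plasma cells, was the member whose call held (30.1, 34.5 and 58.4 in ND and 92.98, 151, 143 and 122 in HFD, log2 change 1.65, SE 0.25, adjusted p = 0.00539).

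Endothelial, fibroblast, enteric neuron and glia, and smooth muscle genes gave few calls. The erythroid and platelet list, with only 4 members tested, and the adipocyte list gave more. Their shares called higher were 75% and 42.9%, beside 11.5% of all genes. Of 12 endothelial, 23 fibroblast and 13 enteric neuron and glia genes tested, 0 were called by limma at the threshold or by limma-voom on recovered reads, and 2, 1 and 1 had an unadjusted p under 0.05. In the 7 fits up to 1 endothelial gene was called higher. Up to 1 fibroblast gene was called higher and up to 1 lower, and up to 2 neuron and glia genes lower. With equal sums 0, 0 and 1 were called, the last lower. Of smooth muscle genes 1 of the 22 members tested was higher and 0 lower (1 higher and from 0 to 1 lower in the 7 fits, 1 and 1 with equal sums), and that was Ckb, a creatine kinase of brain and epithelia (43.1, 55.2 and 72.7 in ND and 237, 179, 263 and 319.8 in HFD, log2 change 2.11, SE 0.23, adjusted p = 0.00208). Of the erythroid and platelet list 4 of 12 members passed the filter and 3 of the 4 members tested were higher and 0 lower (from 1 to 4 higher and 0 lower in the 7 fits, 3 and 0 with equal sums). Hba-a1, a haemoglobin chain, was at 3.81, 3.49 and 6.3 in ND and 23.8, 29.7, 22.2 and 10.5 in HFD. Hba-a1 changed by 1.98 (log2, SE 0.33, adjusted p = 0.00698). The calls of the haemoglobin chains Hbb-bs and Hbb-bt were lost without ND 1 or ND 2 (adjusted p = 0.0507 to 0.0637) and without ND 1 or ND 2 (adjusted p = 0.0712 to 0.0935). The erythroid and platelet list summed to 13.8 to 22.2 in ND and 34.0 to 107 in HFD. Of the adipocyte list 6 of the 14 members tested were higher and 0 lower (from 3 to 8 higher and from 0 to 1 lower in the 7 fits, 4 and 0 with equal sums), and the 3 that held were Pck1, Pparg and Cidec, a lipid droplet protein (10.9, 19.4 and 30.3 in ND and 88.2, 50.9, 71.3 and 85.6 in HFD, log2 change 1.90, SE 0.33, adjusted p = 0.00747). Adipoq, the defining adipocyte hormone, was at 1.83, 1.52 and 1.09 in ND and 1.83, 8.22, 7.04 and 4.57 in HFD (log2 change 1.25, SE 0.37, adjusted p = 0.0486), lost without ND 1, ND 2, ND 3, HFD 2, HFD 3 or HFD 4 (adjusted p = 0.0702 to 0.138). The part of these cells in the other changes was not tested.

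Protein folding genes were called lower more often than higher. In the unfolded protein and amino acid response list 4 of the 30 members tested were higher and 14 lower (from 1 without ND 1 or ND 2 to 5 higher and from 2 without ND 2 to 15 lower in the 7 fits, 1 and 16 with equal sums; median -0.42; 1 higher and 2 lower in all 7 fits without 1 library). Manf was at 151, 152 and 166 in ND and 86.1, 98.95, 98.4 and 97.4 in HFD. Manf changed by -0.71 (log2, SE 0.10, adjusted p = 0.00461). Creld2 was at 19.8, 21.4 and 26.3 in ND and 9.84, 12.8, 13.2 and 14.3 in HFD (log2 change -0.80, SE 0.15, adjusted p = 0.00957), both small secreted stress proteins. Hspa5, the main chaperone of the endoplasmic reticulum, was at 201, 211 and 214 in ND and 64.7, 106, 119 and 131 in HFD (log2 change -1.03, SE 0.23, adjusted p = 0.0183), lost without ND 1 or ND 2 (adjusted p = 0.0621 to 0.0775). Ddit4, an inhibitor of growth signalling, rose (4.26, 5.46 and 5.24 in ND and 14.9, 9.85, 10.01 and 9.12 in HFD, log2 change 0.98, SE 0.17, adjusted p = 0.00738). Of secretory pathway genes 10 of the 43 members tested were higher and 3 lower (from 1 without ND 2 to 11 higher and from 1 to 5 lower in the 7 fits, 2 and 12 with equal sums), but 4 higher and 10 lower on FPKM as deposited, so their balance turns with the scaling. Kdelr3, a retrieval receptor of the Golgi, led them (1.15, 1.23 and 1.77 in ND and 23.2, 9.13, 12.9 and 14.9 in HFD, log2 change 2.69, SE 0.27, adjusted p = 0.00151).

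Clock genes: 7 of the 19 members tested were higher and 1 lower (from 4 to 7 higher and from 1 to 2 lower in the 7 fits, 3 and 3 with equal sums; 4 higher and 2 lower as deposited). Dbp, a clock output factor, was at 15.4, 13.9 and 12.4 in ND and 40.1, 46.8, 50.03 and 52.8 in HFD. Dbp changed by 1.70 (log2, SE 0.13, adjusted p = 0.000747). Per1 was at 0.946, 0.806 and 0.983 in ND and 2.19, 1.87, 2.32 and 2.48 in HFD. Per1 changed by 0.75 (log2, SE 0.10, adjusted p = 0.00351). Per3 was at 0.804, 0.806 and 0.513 in ND and 1.38, 2.45, 2.34 and 2.48 in HFD (log2 change 0.88, SE 0.16, adjusted p = 0.00873), while Nfil3, which opposes Dbp at the same sites, was lower (1.52, 1.48 and 1.79 in ND and 0.691, 0.909, 0.752 and 0.601 in HFD, log2 change -0.58, SE 0.10, adjusted p = 0.00867). Bhlhe40, a repressor within the clock, was at 13.3, 11.6 and 7.51 in ND and 29.8, 19.04, 28.8 and 32.5 in HFD. Bhlhe40 changed by 1.28 (log2, SE 0.23, adjusted p = 0.00857). Clock itself was at 8.27, 6.58 and 5.89 in ND and 7.52, 6.93, 7.25 and 5.78 in HFD (adjusted p = 0.997). The time of day at which tissue was taken is not in the labels, and its part in these values was not tested. Of immediate early genes, which tissue handling also raises, 6 of the 24 members tested were higher and 0 lower (from 1 without ND 2 to 7 higher and from 0 to 2 lower in the 7 fits, 4 and 4 with equal sums), but 6 higher and 4 lower as deposited. Gadd45b was the 1 whose call held (6.41, 7.91 and 6.84 in ND and 17.2, 11.9, 13.4 and 13.3 in HFD, log2 change 0.89, SE 0.13, adjusted p = 0.00509).

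Hypoxia and glycolysis genes: 10 of the 26 members tested were higher and 1 lower (from 3 without ND 2 to 10 higher and from 0 to 1 lower in the 7 fits, 2 and 3 with equal sums; 5 higher and 2 lower as deposited), with Ankrd37, a target of hypoxia factors, at 1.997, 3.67 and 4.94 in ND and 16.7, 9.87, 10.95 and 13.7 in HFD. Ankrd37 changed by 1.64 (log2, SE 0.25, adjusted p = 0.00539). Ndrg1 was at 23.8, 26.2 and 26.5 in ND and 46.8, 40.2, 46.5 and 51.4 in HFD. Ndrg1 changed by 0.83 (log2, SE 0.11, adjusted p = 0.00336). Nuclear-encoded genes of oxidative phosphorylation were called in 1 direction: 34 of the 75 members tested were higher and 0 lower (from 1 without ND 2 to 44 higher and 0 lower in the 7 fits, 4 and 0 with equal sums), with a median of 0.52. As deposited the counts were 14 higher and 0 lower, so the number of rises depends on the scaling. Ndufa10, of complex I, was the 1 that held in all 7 (54.8, 61.9 and 73.3 in ND and 110.4, 102, 105 and 117 in HFD, log2 change 0.78, SE 0.12, adjusted p = 0.00583). Of 13 mitochondrially encoded genes 2 were called, ND4 (lost without ND 1, ND 2, ND 3, HFD 2 or HFD 3 (adjusted p = 0.067 to 0.138)) and ND4L (66.3, 62.7 and 51.2 in ND and 225, 149.98, 103 and 154 in HFD, log2 change 1.33, SE 0.24, adjusted p = 0.00888). HFD 1 was the highest library for both.

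The housekeeping lists give the scale of these shifts. Of cytosolic ribosomal proteins 0 of the 79 members tested were higher and 1 lower (0 higher and from 0 to 1 lower in the 7 fits, 0 and 2 with equal sums; median 0.11), of translation and ribosome production 1 of the 30 members tested was higher and 1 lower (0 higher and from 1 to 3 lower in the 7 fits, 0 and 2 with equal sums), of heat shock genes 1 of the 24 members tested was higher and 0 lower (from 0 to 1 higher and 0 lower in the 7 fits, 0 and 0 with equal sums), and of proteasome subunits 0 of the 31 members tested were higher and 6 lower (0 higher and from 0 without ND 2 to 6 lower in the 7 fits, 0 and 10 with equal sums; median -0.16). None of the 6 proteasome calls held in all 7 fits without 1 library. They made up 19.4% of their list, beside 10.3% of all genes called lower.

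**Figure D4:**
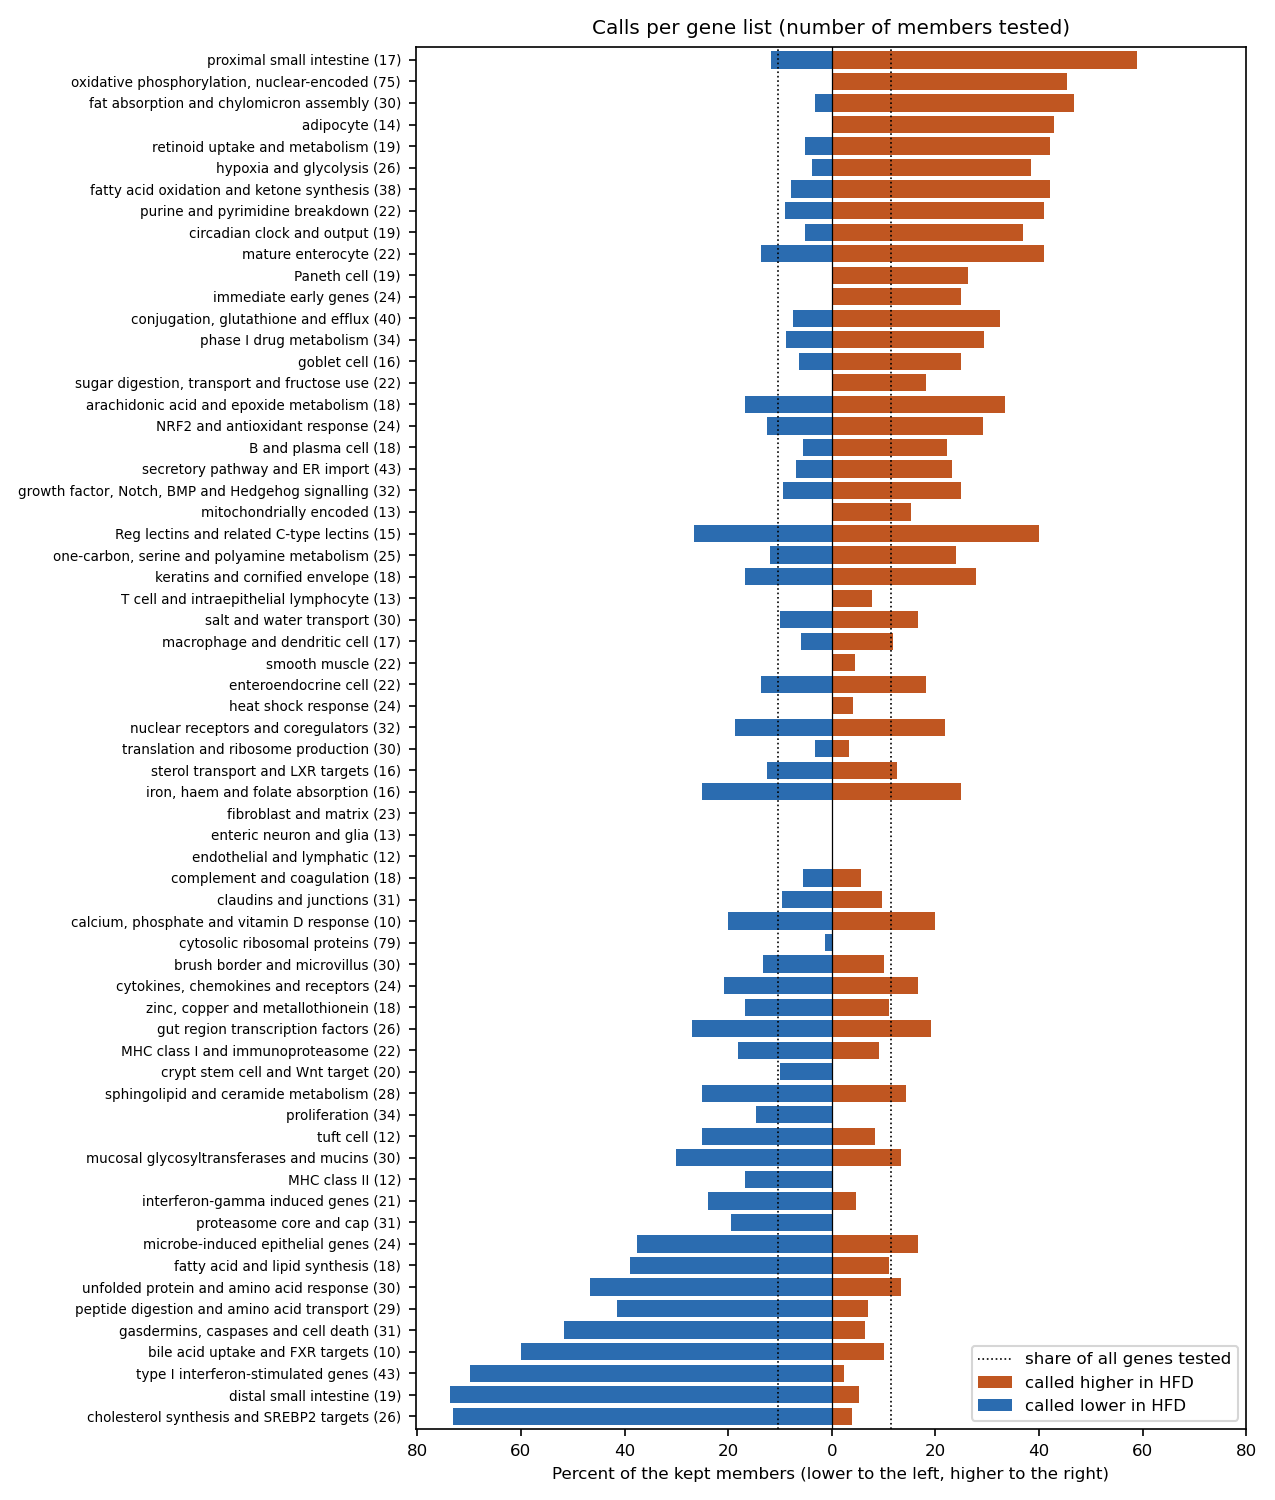
Bars give, for lists with at least 10 members tested, the percent of those members that were called higher (right) or lower (left) in HFD, with the number tested in brackets and dotted lines at the shares of all genes tested, 11.5% and 10.3%. The cholesterol, ileal (distal) and interferon lists reach furthest to the left among the lists drawn and the upper gut (proximal), fat absorption and oxidative phosphorylation lists furthest to the right.

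Some related genes, chosen because they went opposite ways, are set side by side. Besides Reg1 and Reg3g, Fabp1 and Fabp6 differ by the sign of their change (3.21 and -9.43), as do Casp6 and Casp4 (2.81 and -1.49). Sprr1a, of the cornified envelope family, rose (0.513, 0.64 and 0.897 in ND and 17.6, 5.32, 6.66 and 6.72 in HFD, log2 change 2.45, SE 0.34, adjusted p = 0.00386) and its neighbour Sprr2a3 fell (158, 106 and 85.8 in ND and 64.00, 17.4, 24.04 and 21.9 in HFD, log2 change -1.98, SE 0.42, adjusted p = 0.0156), lost without ND 1 or ND 2 (adjusted p = 0.0607 to 0.068). Cyp4a10, a fatty acid hydroxylase, was at 0.571, 2.47 and 4.54 in ND and 16.5, 4.27, 30.1 and 37.5 in HFD. Cyp4a10 changed by 2.55 (log2, SE 0.70, adjusted p = 0.0376), a call lost without ND 1, ND 2, HFD 1, HFD 3 or HFD 4 (adjusted p = 0.0622 to 0.14). Cyp4b1, the next tested gene on chromosome 4, was at 63.5, 77.97 and 100.1 in ND and 24.7, 40.6, 43.7 and 45.7 in HFD. Cyp4b1 changed by -1.05 (log2, SE 0.24, adjusted p = 0.0198), a call lost without ND 2 or ND 3 (adjusted p = 0.0564 to 0.0773). The Fabp1 call was lost without ND 2 (adjusted p = 0.051) and those of Reg1 and Reg3g without ND 1 or ND 2 (adjusted p = 0.0595 to 0.0627) and without ND 1, ND 2, ND 3, HFD 1 or HFD 4 (adjusted p = 0.0531 to 0.11). Of 10324 pairs of neighbouring tested genes, 564 had both genes called and 197 of these went in opposite directions and 367 in the same direction. Throughout, neighbours are tested genes with no other tested gene placed between them, and genes that did not pass the filter may lie between.

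**Figure D5:**
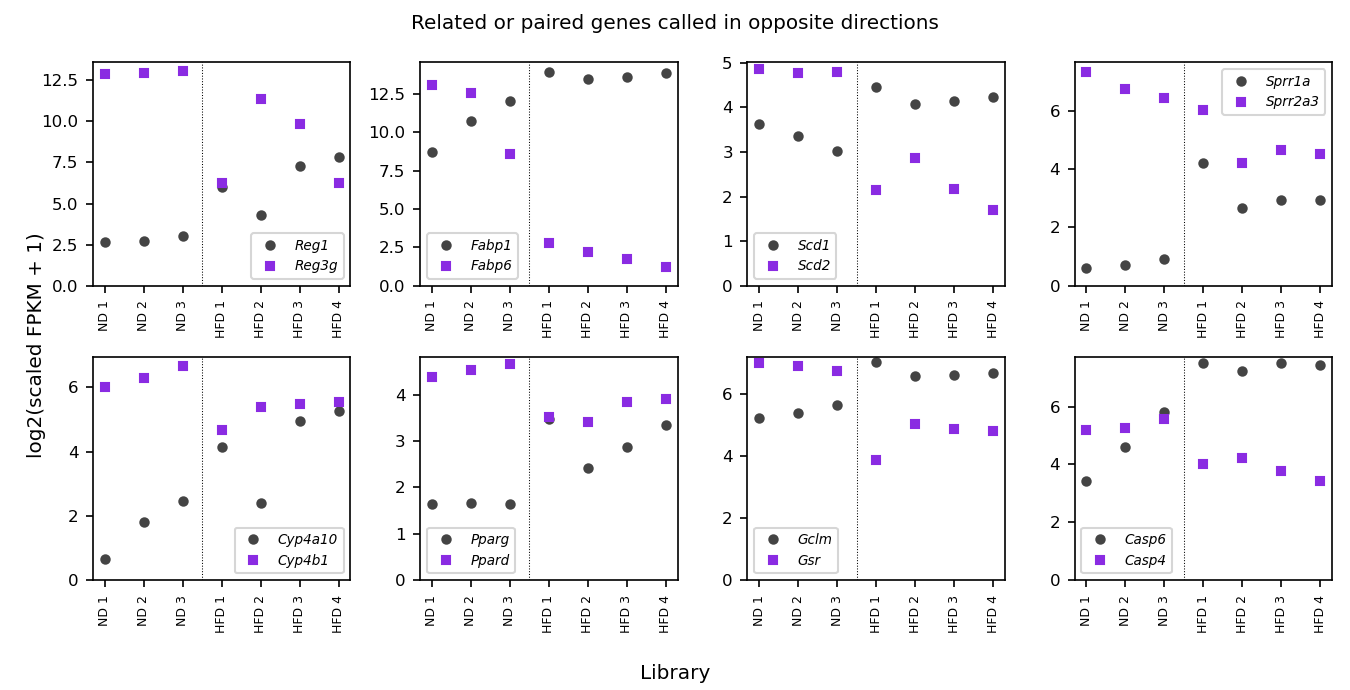
Each panel plots log2(scaled FPKM + 1) of 2 genes in the 7 libraries, with ND left and HFD right of the dotted line. In each panel the gene drawn in grey circles is higher in HFD and the gene in purple squares lower, with 1.31 for Gclm and -2.23 for Gsr as an example.

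Other neighbours moved together. Of runs of at least 3 tested neighbours called in the same direction there were 55, and the longest held 7 genes on chromosome 3 (137931007 to 138455499 of GRCm38.p6), all higher: Dapp1, Mttp and the alcohol dehydrogenases Adh7, Adh1, Adh6a, Adh4 and Adh5. Their log2 changes ran from 0.49 in Dapp1 to 3.97 in Adh1, and the calls of Dapp1, Mttp and Adh5 were lost without ND 1 or ND 2 (adjusted p = 0.0809 to 0.0935), without ND 1, ND 2, HFD 3 or HFD 4 (adjusted p = 0.0563 to 0.127) and without ND 1 or ND 2 (adjusted p = 0.0592 to 0.0706). A run of 5 on chromosome 13 (4191168 to 4609164) held the aldo-keto reductases Akr1c13, Akr1c19, Akr1c12 and Akr1e1 and the gene model Gm40656, all higher (Akr1c13 lost without ND 1, ND 2, ND 3 or HFD 3 (adjusted p = 0.0563 to 0.0728), and Akr1c19 without ND 2, ND 3 or HFD 3 (adjusted p = 0.0502 to 0.0647)). Another run of 5 on chromosome 13 (100144063 to 100492609) held Naip2, Naip5, Naip6, Naip1 and Gtf2h2, all lower (Naip5 lost without ND 1, ND 2, ND 3, HFD 3 or HFD 4 (adjusted p = 0.0549 to 0.138), Naip6 without ND 1, ND 2, HFD 1, HFD 3 or HFD 4 (adjusted p = 0.0685 to 0.139), and Gtf2h2 without ND 2 (adjusted p = 0.0713)). The Adh, Akr1c and Naip genes are families of similar copies, whose reads may have been split in counting.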

How the data were processed

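The samples are RNA of mouse small intestine. Extraction with TRIzol and a VAHTS Universal V6 library kit are named in the labels' protocols. HISAT2, HTSeq, fastp and R 3.2.0 are listed, with the mm10 genome, in the submitters' processing notes. Annotation and strand setting: not given in the sources used here. FPKM per gene symbol and library are the authors' deposited values. Each gene's FPKM are whole multiples of 1 read, which returned whole reads for 24293 of 24294 symbols (99.9959%, within 0.05 reads). At 1 FPKM a gene of 1 kb rested on 31.8 to 37.3 reads in these 7 libraries.

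Libraries were grouped by their titles. FPKM was divided by a median-ratio factor per library and tested as log2(scaled FPKM + 1) with limma 3.58.1 (R 4.3.3), a two-sided test with no covariate and a trend in variance, and Benjamini-Hochberg adjustment over the 10477 genes kept; the threshold was 0.05 with no minimum fold. The fit was tested on simulated data. Positions and promoters are those of RefSeq on GRCm38.p6, and 23248 symbols matched by name. The gene lists (69) and all other choices were made with earlier results of these data known. Named genes are the 15 largest rises and falls among called genes without overlap, the 8 largest gains and losses of level, up to 6 called members of a list by adjusted p, the 10 largest changes not called, and related or neighbouring genes that went opposite ways, leaving out gene models, pseudogenes and receptor segments. Members a list is best known for, and members whose calls held without any 1 library, were also named, the latter chosen after their values were seen. Some genes that these rules name are not reported here.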

Additional observations from a re-analysis of the deposited data

Results flagged for a closer look

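In 29 of 343 named genes 1 HFD library lay so far from the other 3, by the gap over the range of log2 values, that chance would give it in about 5% of genes. Its scaled FPKM is given in brackets. HFD 1 stood above the other 3 HFD libraries in Zg16 (4250), Tff3 (1580), Fcer1g (7.67), Usp18 (3.08), Il15 (26.7), Cxcl16 (32.6), Fgfr3 (4.39), Ndufc1 (185) and Insig2 (6.19). HFD 1 stood below the other 3 HFD libraries in Anpep (578), Dpp4 (58.7), Slc4a4 (5.52), Maob (60.9), Scg2 (0.949), Dnmt1 (1.66), Mcm5 (1.27), B3gnt6 (0.106), Manf (86.1), Per3 (1.38), Enpep (163), Mki67 (1.82) and Sis (312). HFD 2 stood above the other 3 HFD libraries in Slc10a2 (0.55) and Parp14 (7.56). HFD 2 stood below the other 3 HFD libraries in B4galt6 (33.8). HFD 3 stood above the other 3 HFD libraries in Heph (48.3). HFD 3 stood below the other 3 HFD libraries in Gip (105). HFD 4 stood above the other 3 HFD libraries in Siglecf (1.65) and Ghrl (12.7). Over all 10477 genes, 764 met that measure, and the library apart was HFD 1 in 599, HFD 2 in 89, HFD 3 in 23 and HFD 4 in 53. HFD 1 is also the library with the highest mitochondrial share (32.4%) and the fewest reads.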

How the results depend on the processing

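Depth limits low genes, since 1 FPKM on 1 kb is about 31.8 reads in the shallowest library. With all libraries and the filter 2280 genes were called. The count was 1488 without the filter, 5531 with weights per library and 1060 with the replicate block, and these held 1224, 2277 and 886 of the 2280 in the same direction. Scaling set the balance: 618 were higher and 1661 lower as deposited, and 431 and 1902 with equal sums. Without the filter 710 were higher, with weights 2810 were higher and 2721 lower, and with the block 608 and 452. Leaving out 1 library gave 734 to 2259 calls, 372 to 1183 higher and 362 to 1089 lower, with the fewest without ND 2. Same-numbered libraries deviated with correlations of -0.15, 0.06 and -0.10. With so few libraries these values cannot decide whether the numbers pair them. Other settings stayed within 1.5 times the call count: quantile normalization (2494), pseudocount 0.1 (2248), a mean of at least 5 FPKM (1676 of 6038), robust variance (2292), all 11 libraries in the fit (2682), limma-voom on recovered reads (2310), and, chosen after seeing the data, leaving out HFD 1 and ND 3 (2401). The difference in mitochondrial share was 7.57 percentage points and 3.47 without HFD 1, and the exact test cannot reach the threshold with 6 libraries. Of 343 named genes, some of them not called, 29 kept their direction but lost their call as deposited, 58 with equal sums and 140 without ND 2. Log2 changes that turned sign, all but Cebpa and Eif4ebp1 not called in the values reported above, were Abcg5 -0.1281 as deposited, -0.2473 with equal sums, -0.0038 with quantile normalization and -0.0405 to 0.3082 without 1 library (sign turned without ND 1); Apob 0.0231 with weights and -0.1795 to 0.0065 without 1 library (sign turned without HFD 2); Cebpa -0.0111 with equal sums; Clock 0.0717 with weights, 0.0688 with the replicate block, 0.0005 with limma-voom and -0.0949 to 0.1205 without 1 library (sign turned without ND 1 or HFD 4); Cpt1a 0.0289 with weights; Cyp3a11 0.7755 with weights, 0.6345 without HFD 1 and ND 3 and -0.6122 to 0.3179 without 1 library (sign turned without ND 3, HFD 1 or HFD 2); Eif4ebp1 -0.0002 with equal sums; Fabp2 -0.2156 as deposited, -0.3363 with equal sums, -0.3292 with quantile normalization, -0.0613 with weights and -0.1056 to 0.2033 without 1 library (sign turned without ND 1, HFD 1 or HFD 2); Gsdmd -0.0284 as deposited and -0.1485 with equal sums; Lgr5 0.0271 with weights and -0.3625 to 0.0019 without 1 library (sign turned without ND 1); Lyz1 -0.0915 with equal sums and -0.0687 to 0.7071 without 1 library (sign turned without HFD 2); Mogat2 -0.2272 as deposited, -0.3470 with equal sums, -0.1904 with quantile normalization, -0.1178 with the replicate block and -0.1304 to 0.1789 without 1 library (sign turned without ND 1, HFD 3 or HFD 4); Nqo1 -0.0742 with equal sums; Sct -0.2355 as deposited, -0.3539 with equal sums, -0.1016 with quantile normalization, -0.3628 with weights, -0.0102 with limma-voom, -0.3018 without HFD 1 and ND 3 and -0.1993 to 0.1280 without 1 library (sign turned without ND 3 or HFD 1); Sis 0.0850 with weights, 0.0075 without HFD 1 and ND 3 and -0.3189 to 0.0177 without 1 library (sign turned without HFD 1). The cause was not tested.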

Other observations

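Of growth factor, Notch, BMP and Hedgehog genes 8 of the 32 members tested were higher and 3 lower (from 2 without ND 1 or ND 2 to 8 higher and from 3 to 4 lower in the 7 fits, 5 and 4 with equal sums), shares of 25.0% and 9.38% beside 11.5% and 10.3% of all genes. Bmp2, a growth brake of villus epithelium, was at 18.2, 16.5 and 12.2 in ND and 2.95, 6.33, 4.58 and 3.47 in HFD (log2 change -1.66, SE 0.23, adjusted p = 0.00354), while Bmp8b was at 0.293, 0.247 and 0.586 in ND and 2.62, 1.53, 1.99 and 2.81 in HFD (log2 change 1.23, SE 0.17, adjusted p = 0.00358). Ereg, an epidermal growth factor receptor ligand, was at 10.8, 7.05 and 3.94 in ND and 0.877, 1.45, 1.16 and 0.852 in HFD (log2 change -1.91, SE 0.27, adjusted p = 0.00388) and the Notch ligand Dll4 at 4.53, 4.32 and 3.4 in ND and 1.8, 1.64, 1.79 and 1.64 in HFD (log2 change -0.90, SE 0.10, adjusted p = 0.0025). Fgfr3, a fibroblast growth factor receptor, was higher (1.63, 1.46 and 1.65 in ND and 4.39, 3.31, 3.45 and 3.37 in HFD, log2 change 0.84, SE 0.11, adjusted p = 0.00291). ND and HFD did not overlap for these 5.

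Of cytokines, chemokines and their receptors 4 of the 24 members tested were higher and 5 lower (from 2 to 7 without HFD 4 higher and from 1 without ND 2 to 4 lower in the 7 fits, 2 and 6 with equal sums), shares of 16.7% and 20.8% beside 11.5% and 10.3% of all genes. Il15, which sustains intraepithelial lymphocytes, was at 5.52, 5.46 and 6.02 in ND and 26.7, 14.1, 14.5 and 15.1 in HFD (log2 change 1.43, SE 0.21, adjusted p = 0.0046) and Il10rb, a chain shared by several cytokine receptors, at 28.7, 34.2 and 41.4 in ND and 85.02, 68.2, 64.2 and 67.96 in HFD (log2 change 1.02, SE 0.15, adjusted p = 0.00494). Il17rc, of the interleukin receptors for bacterial defence, was at 52.5, 55.1 and 55.4 in ND and 25.9, 33.1, 27.8 and 26.4 in HFD (log2 change -0.92, SE 0.11, adjusted p = 0.00276). In junctions 3 of the 31 members tested were higher and 3 lower (from 2 to 4 higher and from 0 to 3 lower in the 7 fits, 1 and 6 with equal sums), shares of 9.68% and 9.68% beside 11.5% and 10.3% of all genes. Cldn4, a claudin of tight junctions, was at 12.9, 14.8 and 19.9 in ND and 175, 77.9, 112 and 130.1 in HFD (log2 change 2.85, SE 0.27, adjusted p = 0.00132). C2, of complement, was at 12.6, 11.03 and 6.6 in ND and 1.1, 3.28, 1.72 and 1.14 in HFD (log2 change -1.9997, SE 0.29, adjusted p = 0.00431). Of brush border structure 3 of the 30 members tested were higher and 4 lower (from 1 to 4 higher and from 0 without ND 2 to 4 lower in the 7 fits, 1 and 9 with equal sums), with 2 higher and 8 lower as deposited, and of keratins and cornified envelope genes 5 of the 18 members tested were higher and 3 lower (from 1 without ND 2 to 6 higher and from 1 to 5 lower in the 7 fits, 2 and 5 with equal sums). The brush border shares, 10% higher and 13.3% lower, stand beside 11.5% and 10.3% of all genes.

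Of the 10 largest changes that limma did not call, 7 were Cd79a, Cd79b, Cxcl13, Fcmr, H2-DMb2, Cd52 and Ms4a1, with log2 changes of 2.53 to 3.71, genes mostly of B cells and their follicles. Each of the 7 was highest in HFD 1, as with Fcmr (0.119, 0.129 and 0 in ND and 36.4, 17.1, 5.61 and 0 in HFD, adjusted p = 0.0865). The defensins Defa21 (39.5, 41.2 and 37.6 in ND and 4.08, 31.5, 9.44 and 0.517 in HFD, adjusted p = 0.0763) and Defa22 were near the ND level in HFD 2 and lowest in HFD 4, and near-identical defensin copies make single values uncertain. Lct, lactase, was at 10.1, 60.5 and 155 in ND and 209, 191, 291 and 348 in HFD (adjusted p = 0.0573).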
